A study of Mus musculus with 5 samples.

Results

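Stmn1, Tuba1b, Tuba1a, Tuba1c, Tubb5, Tubb4b, Tmsb10 and Tmsb4x encode stathmin 1, 3 alpha-tubulins, 2 beta-tubulins and 2 beta-thymosins, and their levels were followed through single bone marrow cells of aged and young mice. These 8 genes were taken by name out of 27998 genes counted. They were selected on measured values, since earlier results on these same cells (levels by cell cycle and by age) were known when they were listed, so their levels across cell classes are a description without a test. The libraries came from Nes-GFP mice, a strain in which green fluorescent protein is driven by Nestin regulatory sequence. Aged mice were more than 20 months old (replicates 2 and 3), and young mice were 10 to 12 weeks old (replicates 1, 2 and 3). In both age groups CD45-CD31+ cells labelled endothelial were sorted from endosteal marrow, frozen with fetal calf serum and DMSO, thawed and put through 10x Chromium 3′ counting, with the PCR cycles set for each sample. The labels do not say whether mice were pooled in a library or whether the replicates came from separate animals, so every p-value measures only the spread between these 5 libraries.

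Microtubules are built from dimers of alpha- and beta-tubulin, and dividing cells assemble their spindle from them. Stathmin 1 binds free tubulin dimers and favours microtubule shrinkage, and mitotic kinases switch it off by phosphorylation. Beta-thymosins bind actin monomers and hold them in reserve for filament growth. In the marrow, B-cell precursors alternate between bursts of division (pro-B and large pre-B cells, which carry the surrogate light chain) and resting stages (small pre-B and immature B cells).

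Of 3384 barcodes, 2116 passed the filters (at least 500 genes, at least 1000 UMIs and at most 10% mitochondrial UMIs), with 282 and 402 cells in the aged libraries and 890, 226 and 316 in the young libraries. The libraries held between 935656 and 5900751 UMIs in all, and median depth was 1889.5 to 4212.5 UMIs per kept cell. The labelled cell type was rare. At least 10 of 16 endothelial markers were detected in 18 cells, called endothelial-like here, and 1905 cells fell in B-lineage clusters, in which at least 80% of cells had a UMI of Cd79a and as many a UMI of Ebf1, genes of the B-cell receptor and of B-cell fate. Cdh5, which defines endothelium, was detected in at most 0.514% of the cells of any B-lineage cluster. Young replicate 1 stood apart: 82.0% of its B-lineage cells lay in dividing clusters, those in which at least 50% of cells had 2 or more UMIs of cell cycle phase genes, against 8.19% and 8.55% in the aged libraries and 10.8% and 9.35% in the other young ones. It also gave 178 of the 193 cells in 4 clusters outside the B lineage. Xist UMIs were found in aged replicate 3 and young replicates 1 and 3 (1672, 8562 and 1118), and Y-linked UMIs in aged replicate 2 and young replicate 2 (284 and 224), so each library was mainly of 1 sex. Between libraries 26 barcode sequences were shared, 5 of them among kept cells.

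The promoters of Tubb4b, Tubb5, Tuba1c and Tmsb10 are shown, the first 3 from genes that were higher in dividing cells and the last from one that averaged lower. These are the 4 members with such a window outside the annotated gene, so Tuba1b, which had the largest difference, is not among them. Each runs 5′ to 3′ on the gene's strand from position -200 to -31 relative to the RefSeq start (GRCm38.p6), with the box CCAAT, or its reverse ATTGG, in capitals. The regions are chr2:25224733-25224902 on the minus strand, chr17:35838332-35838501 on the minus strand, chr15:99029691-99029860 on the plus strand and chr6:72958779-72958948 on the minus strand.
Tubb4b: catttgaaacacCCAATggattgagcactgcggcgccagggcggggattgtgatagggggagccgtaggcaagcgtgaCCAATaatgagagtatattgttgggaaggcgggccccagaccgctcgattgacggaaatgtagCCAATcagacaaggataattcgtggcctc
Tubb5: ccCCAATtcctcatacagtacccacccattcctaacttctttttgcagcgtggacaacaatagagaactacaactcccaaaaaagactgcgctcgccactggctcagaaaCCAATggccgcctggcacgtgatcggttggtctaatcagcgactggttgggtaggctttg
Tuba1c: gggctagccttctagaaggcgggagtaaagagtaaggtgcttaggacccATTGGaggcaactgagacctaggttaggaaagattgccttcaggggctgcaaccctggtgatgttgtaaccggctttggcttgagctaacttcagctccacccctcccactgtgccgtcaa
Tmsb10: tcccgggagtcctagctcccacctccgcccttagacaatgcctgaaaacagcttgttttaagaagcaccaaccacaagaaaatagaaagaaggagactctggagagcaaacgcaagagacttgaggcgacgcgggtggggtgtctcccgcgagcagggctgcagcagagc
CCAAT was searched on both strands in the 250 bases before the start. It occurred 5 times in Tubb4b, 2 times in Tubb5 and 1 time each in Tuba1a and Tuba1c. It was not found in the windows of Tuba1b, Tmsb10 and Tmsb4x, while 33.8% of 32851 RefSeq promoter windows of this length hold it. The 250 bases searched for Tuba1b, Tuba1a and Tmsb4x lie partly inside the annotated gene, and the CCAAT of Tuba1a is in that inner part. For these genes the sequence further upstream was not searched, so a motif absent from the window may still occur there. TTTGAA, the core of an element bound in cell cycle promoters, occurred once in Tubb4b and 2 times in Tmsb4x, while 15.99% of all windows hold it. TTTCCCGC or TTTGGCGC (1.30% of windows) and TATAAA (12.4% of windows) matched no member window. A promoter entry was at hand for 7 of the 8 members, all but Stmn1.

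All 8 are protein-coding genes, and the 3 alpha-tubulin genes are neighbours on chromosome 15. In the GENCODE M21 annotation (GRCm38) Tuba1b lies at chr15:98931425-98934565, Tuba1a at chr15:98949837-98953703 and Tuba1c at chr15:99029891-99038110. The other members lie at chr4:134468320-134473843 (Stmn1), chr17:35833921-35838306 (Tubb5), chr2:25222160-25224702 (Tubb4b), chr6:72957347-72958748 (Tmsb10) and chrX:167207093-167209315 (Tmsb4x). The 3′ ends that this assay reads resemble each other within the families. Of the 31-base words in the last 300 bases of their coding transcripts, 39.3% of Tuba1b's recur in Tuba1a, 24.4% of Tuba1a's in Tuba1b, and 46.7% of Tuba1c's in both. Tmsb10 shares 43.5% of such words with Gm9844, a gene also counted here. Stmn1 shares 1.53% and Tubb4b 4.07% with other counted genes. With annotated genes that have no row in the files they share more, 44.7% of Stmn1's words with Gm11223 and 35.2% of Tubb4b's with Gm16165. Tubb5 and Tmsb4x share 0% with any annotated gene, and the counts of the other 6 members are uncertain to the extent that shared reads were split or dropped.

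Stmn1, Tuba1b, Tubb5, Tubb4b and Tuba1c were higher in the dividing than in the non-dividing B-lineage clusters in all 5 libraries. Tuba1a was on average level, and the thymosins Tmsb10 and Tmsb4x averaged lower. Clusters were made without the 8 genes. Of the 7 members that reached a mean of 50 CPM (UMIs counted per 1000000 UMIs of the class), 4 were higher and 1 was lower in all 5 libraries, and Tuba1c was under that level. Among the 3098 genes at that level, 26% were higher and 30.1% were lower in all 5 libraries. CPM is a share of a class's UMIs and is not divided by gene length. The dividing cells held a median of 4340 UMIs and the non-dividing cells 2263, so a lower share need not be fewer molecules per cell.

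Stmn1, the tubulin-sequestering stathmin, stood at 3262 and 3069 CPM in the dividing cells of aged replicates 2 and 3, and at 3585, 3413 and 4157 CPM in those of young replicates 1, 2 and 3. The non-dividing cells of the same libraries held 251 and 161 CPM of Stmn1 in aged and 786, 101 and 336 CPM in young mice. The classes did not overlap, and the non-dividing cells of young replicate 1 were the highest of theirs. Of these cells 40.2% had 2 or more phase UMIs, against 14.1% to 20.9% in the other libraries. The part of such cells in the non-dividing levels was not tested. The difference in log2(CPM + 1) within a library averaged 3.76 ± 1.05 (SD, n = 5), and was smallest in young replicate 1, at 2.19. Tuba1b, an alpha-tubulin expressed in many tissues, showed the largest difference of the 8. Its dividing cells held 2162 and 2543 CPM in aged and 1945, 2463 and 2717 CPM in young mice, against 110 and 69.5 CPM in aged and 261, 34.4 and 104 CPM in young non-dividing cells. Its difference was 4.63 ± 1.19 (SD, n = 5), again smallest in young replicate 1, at 2.89.

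The beta-tubulins differed less between the classes. Tubb5, the broadly expressed beta-tubulin, had 2679 and 3354 CPM in dividing cells of aged mice and 1994, 3175 and 3420 CPM in those of young mice, against 530 and 599 CPM (aged) and 522, 349 and 650 CPM (young) in non-dividing cells. The lowest dividing value was above the highest non-dividing value, and the difference was 2.46 ± 0.45 (SD, n = 5). Tubb4b, a beta-tubulin also used in cilia, had 429 and 480 CPM in dividing aged cells and 395, 385 and 437 CPM in dividing young cells. Non-dividing cells held 91.0 and 100 CPM of Tubb4b in aged and 71.7, 70.5 and 148 CPM in young mice, a difference of 2.18 ± 0.36 (SD, n = 5). The dividing values lay within a narrow band, and most of the spread in the difference came from the non-dividing cells.

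Tuba1a, an alpha-tubulin best known from developing neurons, behaved unlike Tuba1b. It had 82.5 and 45.7 CPM in dividing aged cells and 41.8, 46.1 and 171 CPM in dividing young cells, against 65.0 and 89.0 CPM (aged) and 34.4, 58.5 and 113 CPM (young) in non-dividing cells. The classes overlapped, 3 of 5 libraries were higher in dividing cells, and the difference was -0.01 ± 0.62 (SD, n = 5). Tuba1c, the third alpha-tubulin of the locus, was scarce, with 38.5 and 62.9 CPM in dividing aged cells and 69.9, 62.8 and 103 CPM in dividing young cells, against 22.1 and 33.4 CPM (aged) and 14.3, 10.3 and 26.9 CPM (young) in non-dividing cells. Each library was higher in its dividing cells, by 1.65 ± 0.78 (SD, n = 5). At these levels few cells carry a UMI: with every cell thinned to 1000 UMIs, 5.53% of dividing cells had a UMI of Tuba1c and 4.37% of Tuba1a.

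Tmsb10 stood at 3273 and 3240 CPM in dividing aged cells and 3944, 3020 and 5365 CPM in dividing young cells, against 3728 and 5057 CPM (aged) and 5328, 4596 and 5217 CPM (young) in non-dividing cells. The difference of -0.37 ± 0.29 (SD, n = 5) was negative in 4 of 5 libraries. Tmsb4x, the more widely expressed thymosin, had 2376 and 2011 CPM in dividing aged cells and 3952, 2015 and 3514 CPM in dividing young cells, against 2954 and 3087 CPM (aged) and 5945, 3786 and 3671 CPM (young) in non-dividing cells. All 5 differences were negative, averaging -0.50 ± 0.32 (SD, n = 5). Gm9844, which shares sequence with Tmsb10, had a pooled 363 CPM in dividing cells and 1000.1 CPM in non-dividing cells. Young replicate 1 gave 578 of the 687 dividing cells and 127 of the 1218 non-dividing cells, so this pooled contrast is mixed with library.

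Lists of other genes of the same machinery did not all follow the tubulins, and like the members they were drawn up with earlier results known. Over all genes the median difference between dividing and non-dividing cells was -0.10, with 26% higher and 30.1% lower in all 5 libraries, and the higher count of the folding list and both counts of the actin list were near these shares. Of 15 other tubulin genes only Tubb2b, a beta-tubulin best known from neurons, reached 50 CPM, and it was lower in all 5 libraries, by -1.33 ± 0.58 (SD, n = 5). Of 21 tubulin folding genes 17 were measured, 5 higher and 2 lower in all 5 libraries, with a median of 0.05. Cct8 and Cct7, subunits of the chaperonin that folds tubulin and actin, were among the higher ones, at 0.77 ± 0.08 and 0.62 ± 0.13 (SD, n = 5). Of 28 microtubule dynamics genes 6 were measured, 3 higher and 2 lower in all 5. Among them Tpx2, a spindle assembly factor, was at 5.03 ± 1.17 (SD, n = 5). Tpx2 is itself 1 of the phase genes that defined the dividing clusters, so its higher level there is no separate result. Map1lc3b, a microtubule-associated protein that works in autophagy, was at -0.98 ± 0.24 (SD, n = 5). Of 38 genes for actin and its binding proteins 35 were measured, 8 higher and 9 lower in all 5, with a median of -0.14. Ptma, which encodes prothymosin alpha and is no beta-thymosin, was higher by 1.31 ± 0.19 (SD, n = 5).

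**Figure D1:**
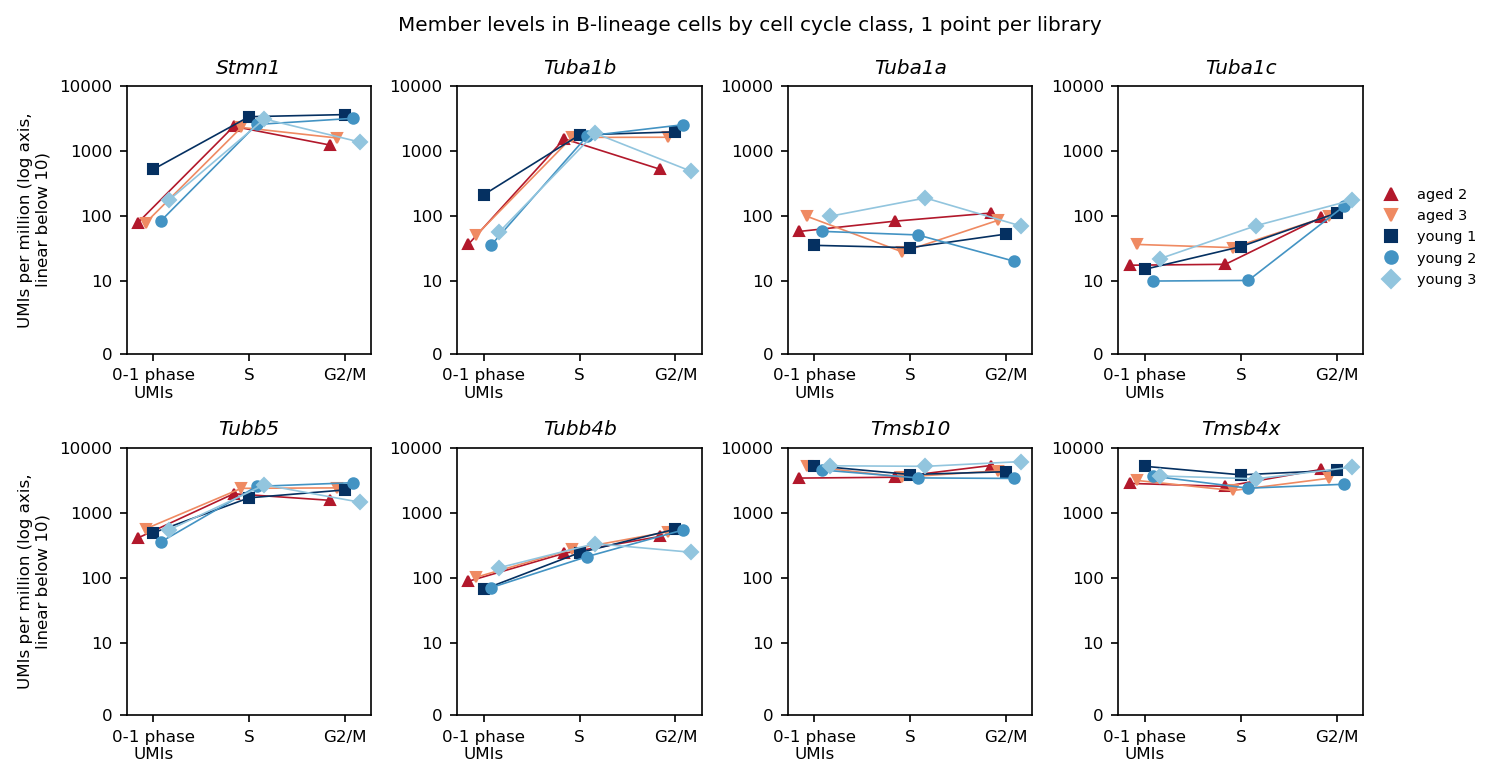
Levels of the 8 genes in B-lineage cells by cell cycle class, in CPM on a log axis that is linear below 10, with 1 point per library joined by a line. Stmn1, Tuba1b and Tubb5 step up between cells with 0 or 1 phase UMI and S cells, Tuba1c steps up between S and G2/M cells, and the thymosins stay within a narrow band.

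B-lineage cells were also classed cell by cell, from 27 S phase and 28 G2/M phase genes that include none of the 8. Each cell was thinned to 1000 UMIs. Cells with 0 or 1 UMI of these genes formed the class of 0 or 1 phase UMI (981 cells), and the others went to the list with more UMIs (479 S and 347 G2/M cells, 98 ties left out). A range and not a cell type is marked by this cut, with 379 cells at 1 phase UMI and 136 at 2. Of the 7 members at 50 CPM, 4 were higher in S cells than in cells with 0 or 1 phase UMI in all 5 libraries (Stmn1, Tuba1b, Tubb5 and Tubb4b) and 1 was lower (Tmsb4x), where 23.1% of 3096 genes were higher and 28.9% lower. All 8 members reached that level in the G2/M comparison, in which 5 (the same 4 and Tuba1c) were higher and 0 lower in all 5 libraries, against 14.2% and 14.1% of 3164 genes.

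Stmn1 was already high in S cells. It stood at 79.3 and 78.7 CPM (aged) and 524, 84.5 and 174 CPM (young) in cells with 0 or 1 phase UMI, at 2394 and 2310 CPM (aged) and 3373, 2565 and 3115 CPM (young) in S cells, and at 1242 and 1588 CPM (aged) and 3636, 3183 and 1370 CPM (young) in G2/M cells. Every S value was above every value of the cells with 0 or 1 phase UMI, by 4.30 ± 0.96 within libraries (SD, n = 5). Tuba1b had 37.0 and 50.7 CPM (aged) and 214, 36.2 and 56.7 CPM (young) in cells with 0 or 1 phase UMI, 1539 and 1621 CPM (aged) and 1770, 1707 and 1884 CPM (young) in S cells, and 525 and 1631 CPM (aged) and 1973, 2540 and 492 CPM (young) in G2/M cells. Its S cells were higher than the cells with 0 or 1 phase UMI by 4.78 ± 1.00 (SD, n = 5). The difference between G2/M and S cells varied in sign among libraries for both genes, at -0.45 ± 0.65 for Stmn1 and -0.55 ± 1.12 for Tuba1b (SD, n = 5). Tubb5 was 2.25 ± 0.38 higher in S cells than in cells with 0 or 1 phase UMI, and differed by -0.12 ± 0.51 between G2/M and S cells (SD, n = 5). Outside young replicate 1 the G2/M class held only 13 to 18 cells a library.

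Tuba1c and Tubb4b had their highest levels in G2/M cells in most libraries. Tuba1c had 17.6 and 36.7 CPM (aged) and 15.3, 10.1 and 22.3 CPM (young) in cells with 0 or 1 phase UMI, 18.2 and 32.8 CPM (aged) and 34.0, 10.3 and 71.3 CPM (young) in S cells, and 95.5 and 101 CPM (aged) and 112, 143 and 176 CPM (young) in G2/M cells. Every G2/M value of Tuba1c was above every other, from 5 to 160 UMIs a library, and G2/M exceeded S cells by 2.11 ± 0.95 (SD, n = 5). This difference was positive in all 5 libraries, as for 7.37% of 3082 genes, and 5.71% were negative in all 5. Tubb4b had 430 and 505 CPM (aged) and 556, 541 and 246 CPM (young) in G2/M cells, against 237 and 272 CPM (aged) and 242, 211 and 333 CPM (young) in S cells. It was higher in G2/M cells in 4 of 5 libraries, by 0.77 ± 0.71 (SD, n = 5), with young replicate 3 the exception. Tmsb4x was also higher in G2/M than in S cells in all 5 libraries, by 0.50 ± 0.28, and Tmsb10 in 4 of 5, by 0.26 ± 0.23 (SD, n = 5).

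**Figure D2:**
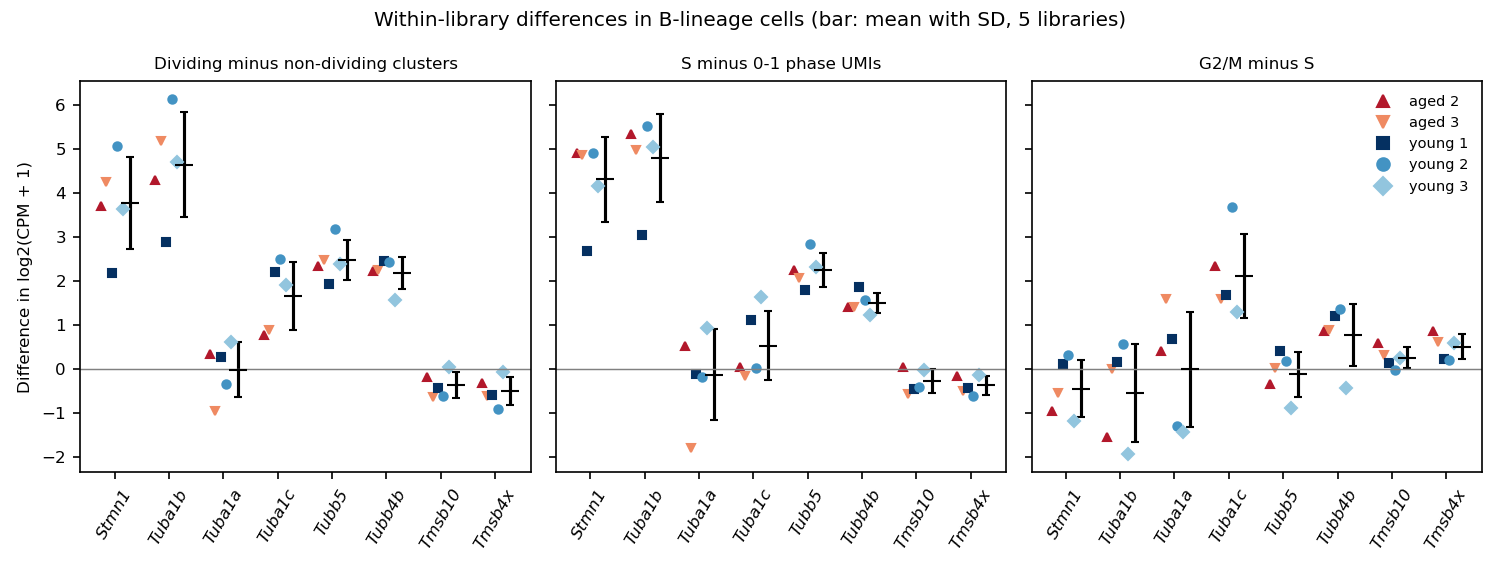
Within-library differences in log2(CPM + 1) for the 8 genes in B-lineage cells, with 1 point per library and a bar for the mean with its SD over 5 libraries. The dividing minus non-dividing panel has Tuba1b highest at 4.63 and the thymosins below 0, and in the G2/M minus S panel Tuba1c stands apart at 2.11.

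Counted per cell after thinning to 1000 UMIs, 94.9% of dividing cells had a UMI of Stmn1, 79.3% of Tuba1b, 87.0% of Tubb5 and 31.6% of Tubb4b. Among cells with 0 or 1 phase UMI the shares were 10.2% for Stmn1 (95% exact binomial interval 8.37 to 12.3, counting error only), 4.38% for Tuba1b, 34.4% for Tubb5 and 9.17% for Tubb4b. All per-cell shares pool the libraries. Young replicate 1 gave 578 of the 687 dividing cells and 77 of the 981 cells with 0 or 1 phase UMI. Endothelial-like cells, which are outside the B lineage, had Stmn1 in 5.56% (0.141 to 27.3) at a median of 2594 UMIs before thinning, against 2201 UMIs in the cells with 0 or 1 phase UMI, and at these shares a low level in a cell and free RNA cannot be told apart. The thymosins were found nearly everywhere: Tmsb10 in 96.8% of dividing cells and 94.6% of cells with 0 or 1 phase UMI, and Tmsb4x in 93.0% and 90.0%. Mean Stmn1 was higher in bins with more phase UMIs, with 0.110 UMIs per 1000 in cells with no phase UMI, 0.142 at 1, 0.307 at 2 to 3, 2.54 at 4 to 7 and 3.92 at 8 or more. The step between the bins of 2 to 3 and 4 to 7 phase UMIs was seen in young replicate 1 (0.838 and 2.91) and in the other 4 libraries together (0.178 and 1.83).

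Tuba1b made up 94.6% of the UMIs of the 3 alpha-tubulin genes in dividing cells (7975 of 8432) and 51.1% in non-dividing cells (308 of 603). In dividing cells its share was 94.7% and 95.9% in aged and 94.6%, 95.8% and 90.8% in young libraries. In non-dividing cells it was 55.9% and 36.2% in aged and 84.3%, 33.3% and 42.8% in young libraries. Young replicate 1, in which 40.2% of non-dividing cells had 2 or more phase UMIs, was close to the dividing cells. The other libraries, in which 14.1% to 20.9% of non-dividing cells did, were far from them. The part of such cells in these shares was not tested. Among cells with 0 or 1 phase UMI the share was 48.2% for Tuba1a and 38.0% for Tuba1b (of 363 UMIs, not scaled to length). Exact binomial intervals on these shares cover counting error only, and were 43.0 to 53.5 for Tuba1a and 33.0 to 43.2 for Tuba1b. These pooled shares mix unlike libraries. In these cells young replicate 1 held 214 CPM of Tuba1b and 35.6 CPM of Tuba1a. Every other library held less Tuba1b than Tuba1a. Tuba1b was at 37.0 and 50.7 CPM (aged) and 36.2 and 56.7 CPM (young replicates 2 and 3), against 58.1, 99.7, 58.4 and 99.3 CPM of Tuba1a. How reads in the stretches that the 3 genes share were assigned is not given in the sources used here.

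**Figure D3:**
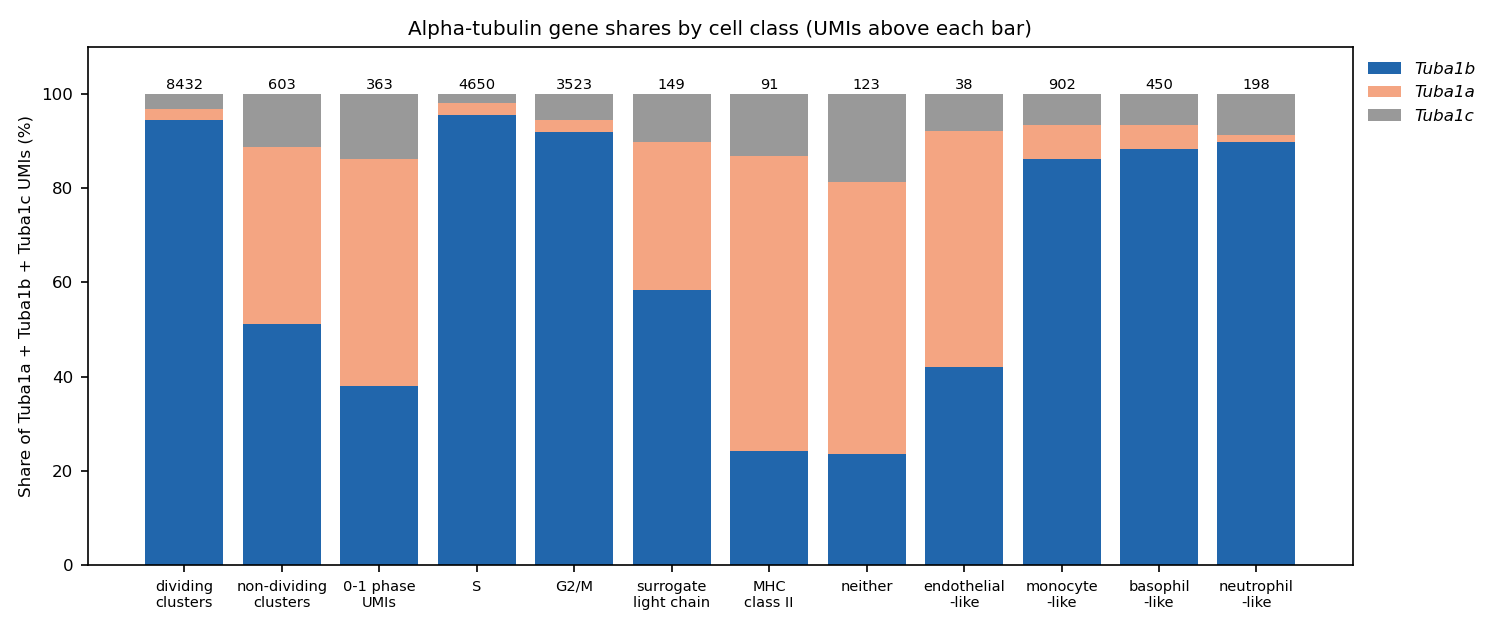
Share of Tuba1b, Tuba1a and Tuba1c in the summed UMIs of these 3 genes (percent) in 12 classes of cells, pooled over libraries, with the number of UMIs above each bar. Tuba1b takes 94.6% in dividing clusters and 95.5% in S cells, against 24.2% in cells with MHC class II and 42.1% in endothelial-like cells.

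The B-lineage cells with 0 or 1 phase UMI were divided by markers into 302 cells with 2 or more UMIs of the surrogate light chain genes Vpreb1, Vpreb2 and Igll1, 208 others with 2 or more UMIs of the MHC class II genes Cd74, H2-Aa, H2-Ab1 and H2-Eb1, and 471 with neither. Near these cuts 99 cells had 1 and 30 had 2 surrogate light chain UMIs, and 116 had 1 and 47 had 2 MHC class II UMIs. Tuba1b was higher in surrogate light chain cells than in cells with neither in all 5 libraries, where 16.8% of 3124 genes were. It had 53.9 and 56.7 CPM (aged) and 382, 101 and 73.8 CPM (young) in surrogate light chain cells, against 24.5 and 37.0 CPM (aged) and 93.6, 16.2 and 28.4 CPM (young) in cells with neither, a difference of 1.53 ± 0.77 (SD, n = 5). These levels rest on few UMIs, 87 and 29 in all, and Tuba1b took 58.4% and 23.6% of the alpha-tubulin UMIs in these classes. Tmsb10 was lower in surrogate light chain cells than in cells with neither in all 5 libraries, as were 15% of genes. Its levels were 3234 and 3327 CPM (aged) and 4279, 4072 and 3476 CPM (young) against 3461 and 5921 CPM (aged) and 6611, 4245 and 5831 CPM (young), a difference of -0.47 ± 0.37 (SD, n = 5). Against MHC class II cells, Tmsb10 was also lower in surrogate light chain cells in all 5 libraries, by -0.63 ± 0.38 (SD, n = 5), as were 10.4% of 3098 genes.

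MHC class II cells had more Tubb5 and Tmsb4x than cells with neither in all 5 libraries, where 3.06% of 3035 genes were higher and 5.77% lower. Tubb5 had 470 and 810 CPM (aged) and 461, 429 and 821 CPM (young) in MHC class II cells, against 376 and 490 CPM (aged) and 356, 344 and 529 CPM (young), a difference of 0.47 ± 0.19 (SD, n = 5). Tmsb4x had 3019 and 3769 CPM (aged) and 6232, 4445 and 4820 CPM (young), against 2435 and 3115 CPM (aged) and 5132, 3162 and 3254 CPM (young), a difference of 0.38 ± 0.14 (SD, n = 5). Among clusters, that led by Cd74 and H2-Aa held 7169 ± 1016 CPM of Tmsb10 (SD, n = 4 libraries with 10 or more cells). The cluster with Ms4a1, the CD20 gene, held 6583 ± 2587 CPM of Tmsb4x and 3470 ± 831 CPM of Tmsb10 (SD, n = 3). The Cd74 cluster held 3944 ± 742 CPM of Tmsb4x (SD, n = 4), so Tmsb10 averaged higher in the Cd74 cluster and Tmsb4x in the Ms4a1 cluster, with no test. These means rest on different libraries. The Ms4a1 cluster used aged replicate 3 and young replicates 1 and 2, and the Cd74 cluster used all libraries but young replicate 1. In non-dividing cells young replicate 1 had the highest Tmsb4x, at 5945 CPM. The part of library in this contrast was not tested.

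Outside the B lineage, the share of Tmsb10 among thymosin UMIs differed between the cell classes. Endothelial-like cells held 11682 CPM of Tmsb4x (95% exact Poisson interval 10750 to 12672, counting error only) and 2417 CPM of Tmsb10 (2004 to 2890), so that Tmsb10 was 17.1% of their thymosin UMIs, against 56.4% in non-dividing B-lineage cells. Of the 18 cells, 8 came from aged replicate 3 and 7 from young replicate 1, and the other libraries gave 1 each. Tmsb4x stood at 11287 CPM in aged replicate 3 and 11505 CPM in young replicate 1, and Tmsb10 at 1021 CPM (18 UMIs) and 3079 CPM (76 UMIs). These are single libraries without a replicate in their age group, so no age comparison was made. Tuba1a reached 383 CPM (230 to 598) in endothelial-like cells from 19 of their 38 alpha-tubulin UMIs. Stmn1 was at 121 CPM (44.3 to 263) there, from 6 UMIs. Summed markers of the B lineage came to 1309 CPM in these cells with 8 of 8 detected, against 16200 CPM in non-dividing B-lineage cells; the part of such RNA in these levels was not tested.

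The non-B clusters came almost wholly from young replicate 1, so they were set beside its own non-dividing B-lineage cells. In that library Tmsb4x had 8481 CPM in monocyte-like, 4951 CPM in basophil-like and 8549 CPM in neutrophil-like cells, against 5945 CPM in non-dividing B-lineage cells. Tmsb10 had 4772 CPM in monocyte-like, 1881 CPM in basophil-like and 359 CPM in neutrophil-like cells, against 5328 CPM, which is 14.8-fold lower in the neutrophil-like cells (17 cells and 114 UMIs in that library). Pooled over libraries, Tmsb10 made up 35.9% of thymosin UMIs in monocyte-like, 26.9% in basophil-like and 3.64% in neutrophil-like cells. Pooled Gm9844 was also lower in neutrophil-like cells, at 26.2 CPM (9 UMIs), than in monocyte-like cells, at 341 CPM. The 2 genes did not move together in all classes. Pooled Tmsb10 was at 4692 CPM in non-dividing B-lineage and 4768 CPM in monocyte-like cells, while Gm9844 was at 1000.1 and 341 CPM. In young replicate 1 Stmn1 was at 786 CPM in non-dividing and 3585 CPM in dividing B-lineage cells. It was at 1713, 1476 and 722 CPM in that library's monocyte-like, basophil-like and neutrophil-like cells. In these clusters 83.6%, 78.0% and 85.0% of cells had 2 or more phase UMIs after thinning, against 11.1% of endothelial-like cells. They also held RNA of B-lineage markers, with Cd79a in 52.1%, 40.7% and 60% and Ebf1 in 63.0%, 62.7% and 80% of their cells at median depths of 9514, 9459 and 16864 UMIs, and summed B-lineage markers of 804, 692 and 813 CPM. The part of such RNA, and of phase, in the stathmin, tubulin and thymosin levels was not tested.

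**Figure D4:**
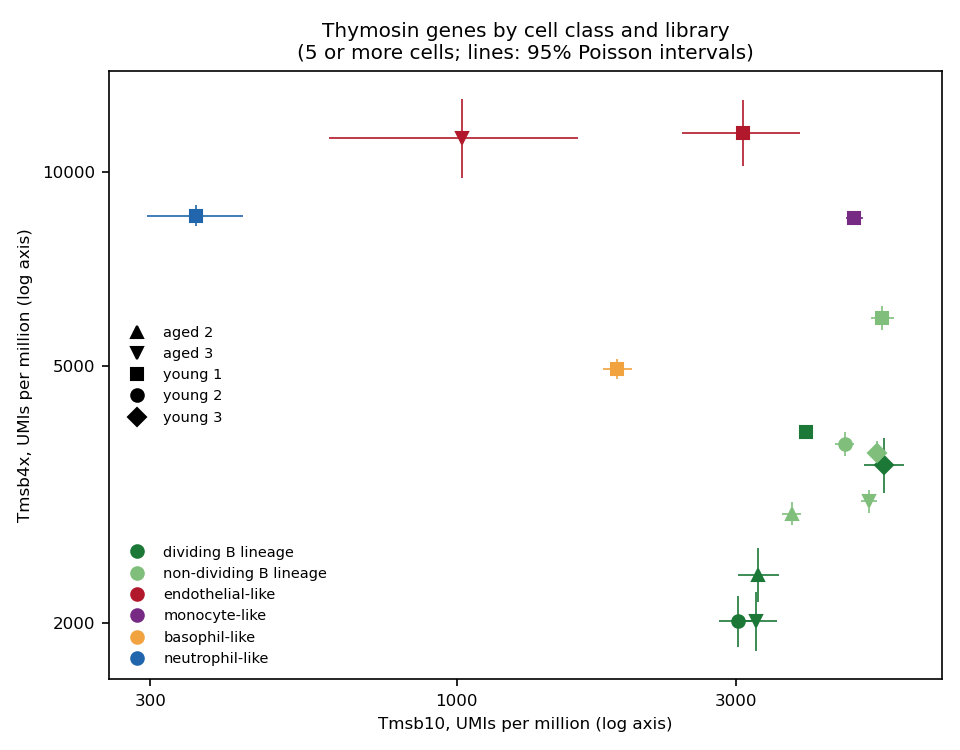
Tmsb4x against Tmsb10, both in CPM on log axes, for classes with 5 or more cells in a library, with 95% Poisson intervals. B-lineage classes lie at the right with at most 5945 CPM of Tmsb4x, and monocyte-like cells lie at the right and higher, at 8481 CPM. Basophil-like cells lie to the left of both, at 1881 CPM of Tmsb10. Neutrophil-like cells lie far to the left with 359 CPM of Tmsb10, and endothelial-like cells lie at the top with 11287 and 11505 CPM of Tmsb4x.

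The age comparison used UMIs summed per library and class and edgeR's quasi-likelihood test over all genes. At a Benjamini-Hochberg adjusted p under 0.05 no gene passed in any of 4 classes of B-lineage cells, so the background of called genes was 0% of 6573 genes in non-dividing, 3149 in dividing, 3209 in the cluster led by Dntt, Vpreb2 and Vpreb1 (the surrogate light chain cluster, 274 cells) and 6073 in cells with 0 or 1 phase UMI. At an unadjusted p under 0.05 the counts were 116, 107, 88 and 131 genes. In the surrogate light chain cluster 24.5% of cells had 2 or more phase UMIs. Another cluster of 117 cells, 80 of them from aged replicate 2, also had Igll1 and Vpreb1 among its leading genes. It was not tested on its own, since some libraries gave it under 10 cells. None of the members tested passed in any class (8 in 3 classes, and 7 in the surrogate light chain cluster, where Tuba1c was under the filter). In no class did a member have both aged values above every young value, which 10.6% (non-dividing), 11.7% (dividing), 11.4% (surrogate light chain cluster) and 10.4% (0 or 1 phase UMI) of genes had. Lower values of Stmn1 and Tuba1b in aged cells, and of Tmsb10 in aged endothelial-like cells, were among the results known when the genes were listed, so these directions are not independent evidence.

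Stmn1 had the largest age value of the members, in cells with 0 or 1 phase UMI. It had 79.3 and 78.7 CPM in aged and 524, 84.5 and 174 CPM in young libraries, and both aged values were below every young value, as for 5.62% of genes. The log2 fold change was -1.70 ± 0.55 (SE; edgeR adjusted p = 0.999, unadjusted p = 0.0066). Without young replicate 1 it was -0.77 ± 0.34 (SE), and that library's cells also had the highest summed phase genes, with 758 CPM of the S list against 301 to 357 CPM and 437 CPM of the G2/M list against 174 to 206 CPM. The part of these genes in the Stmn1 value was not tested. With no filter on low counts Stmn1 passed the edgeR test (adjusted p = 0.00214, and 0.00214 to 1.00 over the alternatives run). In the same cells Tuba1b was at -1.06 ± 0.56, and at -0.13 without young replicate 1. Over all non-dividing cells Stmn1 was at -1.07 ± 0.60 and Tuba1b at -0.60 ± 0.58 (SE), with overlapping groups, and without young replicate 1 they were at -0.17 and 0.30. In the surrogate light chain cluster Stmn1 was at -1.18 ± 0.51 and Tuba1b at -1.12 ± 0.48 (SE; edgeR adjusted p = 0.996 for both), again smaller without young replicate 1, at -0.34 and -0.47.

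In dividing cells the age values of the tubulins were of both signs. Tuba1b was at -0.07 ± 0.29, Tubb5 at 0.03 ± 0.31, Tubb4b at 0.09 ± 0.28, Tuba1a at -0.13 ± 0.57 and Tuba1c at -0.65 ± 0.44 (log2 fold change ± SE; edgeR adjusted p = 0.997 for each). Stmn1 was at -0.30 ± 0.29 (SE), with both aged values, 3262 and 3069 CPM, below the young values of 3585, 3413 and 4157 CPM, as for 6.38% of genes. For Stmn1 and the tubulins other than Tuba1c the value was about as large as its SE or smaller.

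Tmsb4x was the member whose aged values lay below all young values in most classes. Non-dividing cells held 2954 and 3087 CPM of Tmsb4x in aged and 5945, 3786 and 3671 CPM in young libraries, a log2 fold change of -0.64 ± 0.30 (SE; edgeR adjusted p = 1.00, unadjusted p = 0.055). Both aged values were below every young value, as for 5.26% of genes. The same held in cells with 0 or 1 phase UMI (-0.55 ± 0.28) and in the surrogate light chain cluster (-0.59 ± 0.30, where 6.95% of genes did so), but not in dividing cells (-0.62 ± 0.34). These classes share cells and libraries. Without young replicate 1, the highest library, Tmsb4x was at -0.35 in non-dividing and dividing cells and at -0.34 in cells with 0 or 1 phase UMI. Tmsb4x is X-linked, and the libraries with Xist UMIs were aged replicate 3 and young replicates 1 and 3. The part of sex in these Tmsb4x values was not tested. Tmsb10 was at -0.27 ± 0.28 in non-dividing and -0.41 ± 0.32 in dividing cells (SE), with overlapping groups. In the surrogate light chain cluster Tmsb10 had 2799 and 3087 CPM in aged and 4268, 3668 and 3311 CPM in young libraries, so both aged values were below every young value there, at -0.41 ± 0.29 (SE; edgeR adjusted p = 0.996).

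No gene of the surrounding lists passed the age test either. By the rule of smallest p, the actin-severing gene Gsn was at 1.07 ± 0.33 in non-dividing cells (SE; edgeR adjusted p = 1.00, unadjusted p = 0.0063), and Pfdn4, a subunit of the prefoldin that hands tubulin to the chaperonin, was at -0.64 ± 0.31 in non-dividing and -1.05 ± 0.38 in dividing cells (SE). The phase genes gave Top2a, a topoisomerase of dividing cells, at -1.89 ± 0.86 in non-dividing cells and Mki67, the Ki-67 gene, at -0.89 ± 0.34 in dividing cells (SE). Mzt1, a component of microtubule-nucleating complexes, was at 0.72 ± 0.33 in dividing cells (SE).

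**Figure D5:**
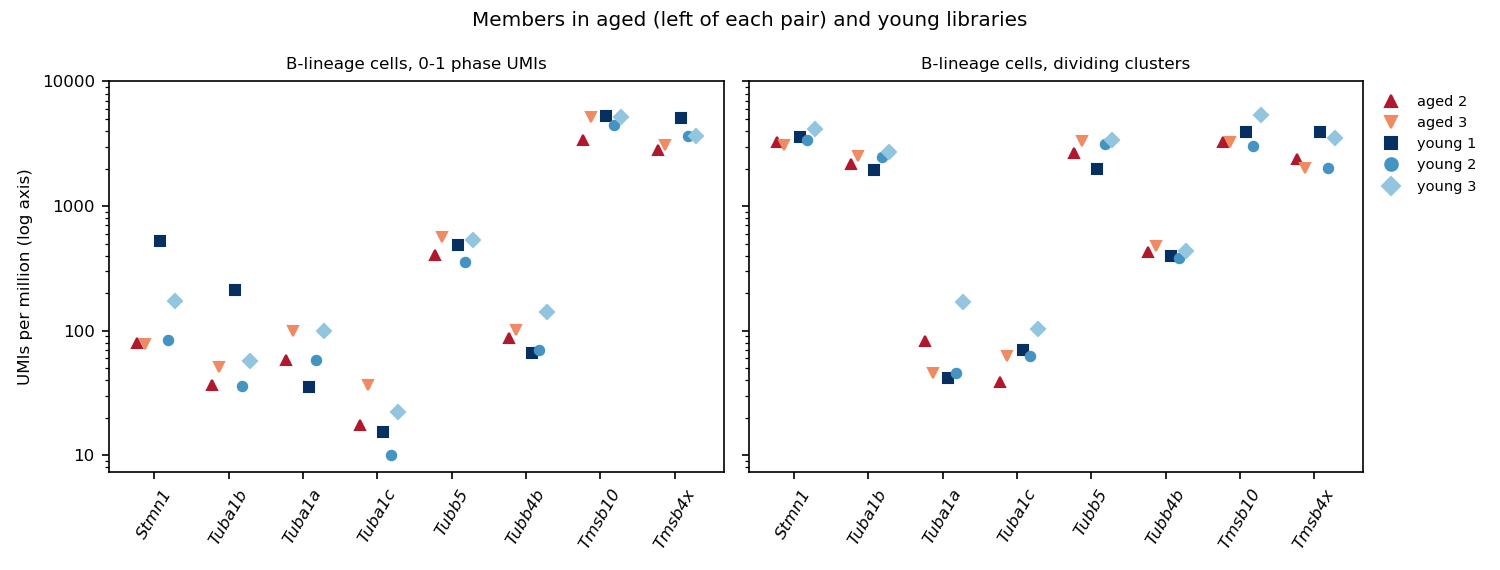
Levels of the 8 genes in aged (left of each pair) and young libraries, in CPM on a log axis, for B-lineage cells with 0 or 1 phase UMI and for dividing clusters, 1 point per library. Stmn1 and Tmsb4x in cells with 0 or 1 phase UMI have both aged points below every young point, and young replicate 1 lies highest for both.

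The genes whose levels tracked each member best were sought over 33 points, each a cluster in 1 library with 10 or more cells, among 3070 genes. Pearson correlations of log2(CPM + 1) are given as a description, since points of a library share its depth. Stmn1 varied most like Dnmt1, Pcna and Dut, with r of 0.94, 0.93 and 0.92, and these encode the maintenance DNA methyltransferase, the sliding clamp of DNA replication and the dUTPase. Tuba1b varied most like Anp32b, Banf1 and Hnrnpab (0.92, 0.89 and 0.88). Tubb5 varied most like Ptma, Hmgb1 and Hmgb2 (0.94, 0.94 and 0.89), and Tubb4b like Ptma, Hmgb1 and Anp32e (0.89, 0.82 and 0.82). Tuba1a varied most like Mtmr14, Laptm4a and Necap2 (0.89, 0.80 and 0.77), and Tuba1c like Hmgn5, Hist1h4i and Selenoh (0.84, 0.75 and 0.75). Tmsb10 varied most like its sequence relative Gm9844 (0.79), with Cecr2 and Gramd4 next at 0.76, and Tmsb4x like Selenok, Ly6c2 and Ostc (0.71 each). Among the members themselves Stmn1 went with Tuba1b at 0.82 and Tubb5 at 0.77, and its correlation with Tuba1a was -0.22, with Tmsb10 -0.09 and with Tmsb4x 0.04.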

How the data were processed

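Single cells of 5 libraries (2 aged, 3 young) were counted per gene. The deposited tables hold whole UMI counts per gene and cell barcode. Per the submitters' processing notes, Cell Ranger, the mm10 build, R 3.5.2, edgeR 3.24.3 and DESeq2 1.22.2 were used; which step used which is not given in the sources used here. Library totals ran between 935656 and 5900751 UMIs. Symbols were found for 27645 of 27998 gene IDs.

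Cells were filtered, clustered with scanpy 1.11.5 and leidenalg 0.10.2 (2000 variable genes, 30 components, resolution 0.8) without the 8 members and sex-linked genes, and named from marker lists. Doublets called (58 cells, 2.741%) were kept in the main analysis and left out in an alternative. Some immunoglobulin genes are not reported here. Age was tested with edgeR 4.0.16 (quasi-likelihood, TMM, filterByExpr, Benjamini-Hochberg over all genes tested) on counts summed per library and class, in R 4.3.3. Standard errors are the log2 fold change divided by the square root of F. Levels across classes carry no test. On simulated counts with known fold changes, the age test recovered 19.4% of genes changed by 1 on the log2 scale and 87% of those changed by 2 in non-dividing cells. The shares were 24.5% and 76.8% in dividing cells, 12.9% and 82.1% in cells with 0 or 1 phase UMI, and 25% and 89.0% in the surrogate light chain cluster. All genes of a class were simulated with the same dispersion, so recovery for genes that vary more between libraries was not tested. DESeq2 1.42.0, limma 3.58.1, other filters, scalings and clusterings, and leaving out libraries were alternatives. The members and all gene lists were chosen with earlier results of these data known. All 8 members are named, together with the 2 genes of smallest p in each list and age comparison and the 3 genes most like each member. Genes such as Tpx2, Cct8, Cct7, Map1lc3b, Ptma and Tubb2b were named after their values were seen. Intervals on counts and shares cover counting error only.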

Additional observations from a re-analysis of the deposited data

Results flagged for a closer look

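In 56 groups of 5 libraries (8 genes in 7 differences), 3 held a library far from the other 4 by Dixon's criterion at a critical value of 0.71 (chance alone gives about 1 in 20 groups). The Tubb4b difference between dividing and non-dividing cells was 1.56 in young replicate 3, against 2.22 and 2.25 in aged replicates 2 and 3 and 2.45 and 2.43 in young replicates 1 and 2. The Tubb4b difference between G2/M and S cells was -0.43 in the same library, against 0.86 and 0.89 in the aged and 1.197 and 1.355 in the other young libraries. Its G2/M class held 14 cells. The Tuba1b difference between S cells and cells with 0 or 1 phase UMI was 3.05 in young replicate 1, against 5.34 and 4.97 in the aged and 5.52 and 5.03 in the other young libraries. In that library the cells with 0 or 1 phase UMI had 214 CPM of Tuba1b, against 36.2 to 56.7 CPM in the others.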

How the results depend on the processing

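None of the differences between classes changed its count of members higher in all 5 libraries by over 1.5 times under the alternatives run, and without young replicate 1 the dividing minus non-dividing difference was 4.16 for Stmn1 and 5.07 for Tuba1b. Of 409 age values of the members over all alternatives, 1 passed the threshold: Stmn1 in cells with 0 or 1 phase UMI without a low-count filter (-1.65 ± 0.34 SE, edgeR adjusted p = 0.0021). Calls over all genes without that filter were 9 in non-dividing (1 higher, 8 lower), 3 in dividing (2 and 1), 1 in the surrogate light chain cluster and 7 in cells with 0 or 1 phase UMI (1 and 6). When replicate number entered as a block, they were 12 in non-dividing (2 and 10) and 18 in cells with 0 or 1 phase UMI (2 and 16), none of them a member. The labels do not say what a replicate number stands for. Same-numbered libraries were also alike in which held Xist or Y-linked UMIs, and their deviations correlated at 0.277 in non-dividing and 0.190 in dividing cells (2 pairs). Leaving out a library gave 0 to 4 calls in dividing cells (4 without aged replicate 3), 0 to 1 in the surrogate light chain cluster and 0 to 2 in cells with 0 or 1 phase UMI.

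Signs turned in 41 age values, 23 of them on leaving out a library; the cause was not tested. In non-dividing cells these were Stmn1 with the block in DESeq2 (0.060), Tuba1b with the block (0.38 in edgeR, 0.48 in DESeq2), Tuba1a with the block (-0.17, and -0.16 in DESeq2), in thinned counts (-0.34) and at most 5% mitochondrial UMIs (-0.087), Tubb5 at that limit (-0.016), and Tubb4b with limma (0.073) and in thinned counts (0.057). In dividing cells they were Tuba1b without TMM (0.0036), with limma (0.0094) and in thinned counts (0.085), Tubb5 with no filter (-0.00041), with the block (-0.15) and without doublets (-0.00029), and Tubb4b without doublets (-0.0056). In cells with 0 or 1 phase UMI it was Tuba1a with the block (-0.041). Leaving out a library moved Tuba1b between -1.10 and 0.30, Tuba1a between -0.23 and 0.65, Tubb5 between -0.16 and 0.32 and Tubb4b between -0.35 and 0.38 in non-dividing cells. The ranges in dividing cells were -0.25 to 0.073, -0.61 to 0.16, -0.20 to 0.21 and -0.042 to 0.20 for the same genes. Tubb4b moved between -0.33 and 0.25 in the surrogate light chain cluster. In cells with 0 or 1 phase UMI the ranges were -0.33 to 0.63 (Tuba1a), -0.27 to 0.29 (Tubb5), -0.32 to 0.43 (Tubb4b) and -0.65 to 0.056 (Tmsb10). Without TMM the median of all genes shifted by 0.06 in non-dividing and 0.09 in dividing cells. In thinned counts the dividing minus non-dividing difference of Tuba1a was -2.12 ± 3.53, against -0.01 ± 0.62 in full counts (SD, n = 5). The cause of this shift was not tested.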

Other observations

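The 8 genes together took 1.58% of all UMIs in dividing cells, 0.944% in non-dividing B-lineage cells and 1.59% in endothelial-like cells. The cluster led by Ifi27l2a and H2-Eb1, of which 51 of 74 cells came from young replicate 1, had 8562 ± 1814 CPM of Tmsb10 and 979 ± 253 CPM of Stmn1 (SD, n = 2 libraries with 10 or more cells), and 44.6% of its cells had 2 or more phase UMIs. The cluster led by Ctla2a, Ctla2b and Myct1 was left unnamed, and its 39 cells of young replicate 1 had 1897 CPM of Stmn1.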
